A study of Mus musculus with 3 samples.

Results

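The cells described here were the 400 aortic smooth muscle cells with the highest combined share of Klk10, Stmn2 and Rpgrip1 transcripts. They were chosen among 17712 cells in which Acta2 and Tagln together made up at least 2% of the unique molecular identifiers (UMIs, each a count of 1 captured transcript), and those 17712 came from 28506 deposited barcodes. The choice went through cells with at least 200 genes and under 20% mitochondrial UMIs (26757), then those with at least 5000 UMIs (22737), then the Acta2 and Tagln gate, and then a score, the sum of the 3 marker genes divided by the UMIs of the cell. Because Klk10, Stmn2, Rpgrip1, Acta2, Tagln and total UMIs chose the cells, their values in these cells are given as a description with no test. Each marker was also examined in cells chosen without it.

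The aortas came from male mice in which the mouse Apoe gene was exchanged for a human APOE allele, all backcrossed to C57BL/6J and all fed a Western diet of 42% fat and 0.2% cholesterol for 16 weeks from 12 weeks of age. Cells of the whole aorta, arch to iliac bifurcation, were pooled by genotype and run as 1 droplet library each, from 6 mice for APOE2, from 5 for APOE3 and from 7 for APOE4. No chow-fed or wild-type group was analysed here. With 1 library per genotype, genotype and library cannot be told apart, and no test between genotypes was possible. The deposited UMIs totalled 169058334 in APOE2, 125553125 in APOE3 and 126077489 in APOE4. Gated cells numbered 6906, 5029 and 5777 in the same order, with median UMIs of 14853.5, 19984 and 15710 per cell. APOE2 and APOE3 shared 26 barcodes, APOE2 and APOE4 shared 30, APOE3 and APOE4 shared 23, and 0 of these belonged to the 400 cells.

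Contractile smooth muscle cells fill the medial layer of the aorta and are recognised by actin-binding and myosin genes such as Acta2, Tagln, Myh11 and Cnn1, which are switched on through the coactivator Myocd. The endothelium lines the lumen and the adventitial fibroblasts, rich in Dcn, Lum and Pi16, surround the media. Klk10 encodes a secreted kallikrein-related peptidase, Stmn2 a stathmin that destabilises microtubules and is best known from neurons, and Rpgrip1 a scaffold that binds RPGR in the connecting cilium of photoreceptors.

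The data went against a cell type named by Klk10 and Stmn2. Of the 400 cells, 350 (87.5%) carried UMIs of Rpgrip1 and of neither other marker. Only 50 carried Klk10 or Stmn2, of which 48 were in APOE2, 0 in APOE3 and 2 in APOE4. Both genes were found together in 26 of the 400, all of them in APOE2, and 25 of those also had Rpgrip1. The cells are therefore called the high-scoring cells below, and the 350 among them the Rpgrip1-only cells. They did carry the smooth muscle markers in every library. Myh11, smooth muscle myosin heavy chain, stood at 1827 CPM (UMIs per 1000000 UMIs) in the APOE2, 2139.9 in the APOE3 and 2711 in the APOE4 high-scoring cells, against 2517, 2545 and 2683 CPM in the other gated cells.

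A single UMI often decided the choice. The score of 168 cells rested on 1 marker UMI and that of 140 on 2. The last cell kept had 1 marker UMI among 8461, a score of 118.189 per 1000000, and the first cell left out had 2 among 16978, a score of 117.8. The highest score, 502.618 per 1000000, belonged to an APOE2 cell with 12 marker UMIs of 23875. A cell with 1 marker UMI could enter only when it was shallow, and the high-scoring cells had median UMIs of 8195, 13551.5 and 8446.5 in APOE2, APOE3 and APOE4, against 14962, 20099 and 15795 in the other gated cells.

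**Figure D1:**
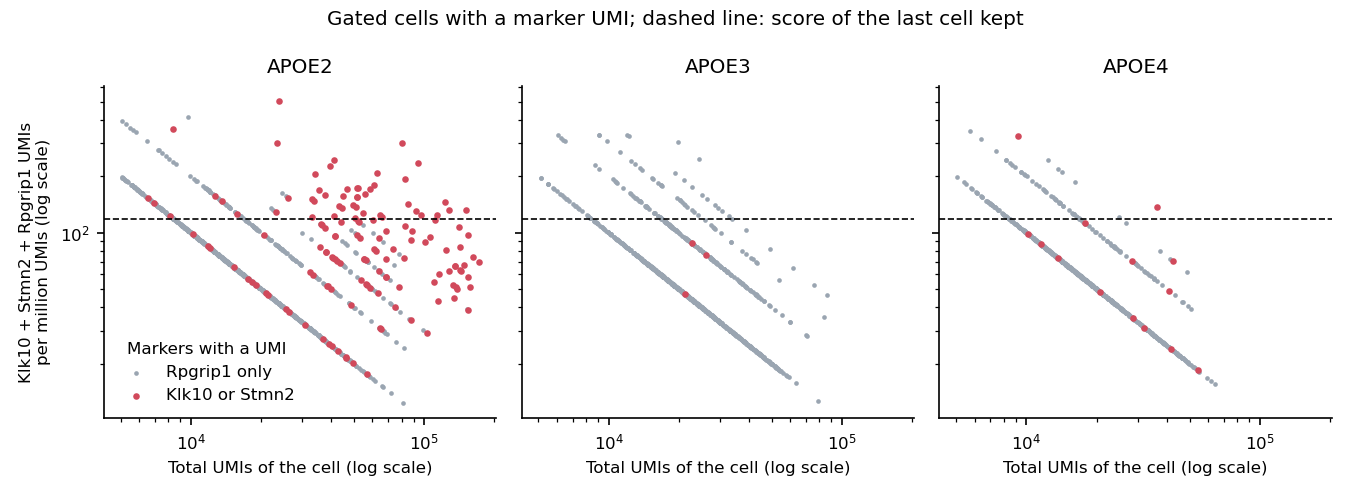
Score (Klk10, Stmn2 and Rpgrip1 UMIs per 1000000) against total UMIs for each gated cell with a marker UMI, both on log scales, 1 panel per library; the dashed line is the score of the last cell kept. The diagonal rows are cells with 1, 2, 3 or more marker UMIs, and the cells with Klk10 or Stmn2 lie almost entirely in APOE2, most of them at high UMI counts.

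The high-scoring cells made up 208 of 6906 gated cells in APOE2, or 3.01% (95% Clopper-Pearson interval 2.62 to 3.44). They were 104 of 5029 in APOE3, or 2.07% (1.69 to 2.50), and 88 of 5777 in APOE4, or 1.52% (1.22 to 1.87). These and all later intervals and floors cover counting error only. When every cell was thinned to 5000 UMIs before scoring, the shares became 2.58%, 2.74% and 1.45%, so APOE2 and APOE3 changed places and APOE4 remained lowest. Scores after thinning were small whole numbers, and cells with the same score were ordered at random, so the cells chosen this way partly reflect a random draw. The difference among genotypes has no replicate behind it.

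Klk10 (ENSMUSG00000030693, chr7:43781035-43785410 on the plus strand of GRCm38) gave 208 UMIs in the gated cells of APOE2, 0 in APOE3 and 1 in APOE4. In the high-scoring cells it stood at 24.6 CPM in APOE2, and at 0 in APOE3 and in APOE4, where 3 UMIs would have been 2.08 and 3.28 CPM. In the other gated cells it stood at 0.917 CPM in APOE2, 0 in APOE3 and 0.00959 CPM in APOE4. Nearly all gated Klk10 UMIs thus came from APOE2. Stmn2 (ENSMUSG00000027500, chr3:8509360-8561606, plus strand) gave 248, 3 and 13 UMIs in the gated cells of APOE2, APOE3 and APOE4. Its level in the high-scoring cells was 35.2, 0 and 2.19 CPM, against 0.900, 0.0276 and 0.105 CPM in the others. It followed the same order of libraries as Klk10 with APOE2 first, and in APOE3 and APOE4 each of its UMIs came from a different cell.

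Klk10 and Stmn2 met in the same barcodes. A total of 62 gated cells carried both, all in APOE2, which was 0.898% of its gated cells, and 36 of the 62, with a median of 104278 UMIs, scored below the last cell kept. Across the 6906 gated APOE2 cells, Klk10 and Stmn2 CPM had a Pearson r of 0.29, Klk10 and Rpgrip1 an r of 0.10 and Stmn2 and Rpgrip1 an r of 0.03; these points share 1 library and their UMI totals, and the values are descriptions. The 62 had a median of 82765 UMIs (8401 to 170897) and 0.196% mitochondrial UMIs. Klk10 was higher in deeper gated APOE2 cells, at 0.0995 CPM in those under 10000 UMIs, 0.0185 CPM from there to 20000, 0.743 CPM from there to 40000 and 9.05 CPM in those of 40000 or more. APOE3 and APOE4 also held deep gated cells, 304 and 204 with at least 40000 UMIs against 315 in APOE2, and had 0 Klk10 UMIs in them.

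The 62 cells carried genes of several cell types. Their Acta2 and Tagln share of UMIs, a median of 4.15%, was that of smooth muscle, while Myh11 stood at 1264 CPM against 2661 CPM in the gated APOE2 cells under 40000 UMIs that lacked the pair, and Myocd at 74.9 against 183 CPM. The genes furthest above those cells were led by endothelial genes. Emcn, the endothelial sialomucin endomucin, stood at 62.4 against 0.569 CPM (109.6-fold) and Vwf, von Willebrand factor, at 40.8 against 1.12 CPM (36.4-fold). Icam2, an adhesion molecule of endothelium, was at 37.0 against 0.541 CPM, and Egfl7, a secreted endothelial factor, at 55.6 against 1.65 CPM. Klk8, a kallikrein gene close to Klk10 on chromosome 7, was at 21.6 against 0.228 CPM, and Cytl1, a secreted cytokine-like protein of cartilage, at 369 against 9.18 CPM. Fibroblast and macrophage genes were higher too, with the proteoglycan gene Dcn at 1428 against 182 CPM, lysozyme gene Lyz2 at 147 against 24.4 CPM and complement gene C1qa at 92.4 against 15.7 CPM. Mitochondrial transcripts were lower, mt-Nd2 at 125 against 1492 CPM. The cells were picked by 2 of their genes in 1 library, so none of these differences was tested. Against the 261 APOE2 gated cells of 40000 UMIs or more that lacked the pair, the differences were 3.47-fold for Emcn, 3.51-fold for Vwf and 5.82-fold for Klk8. Spp1, the osteopontin gene, changed direction, at 188 CPM in the 62 cells, 895 CPM in those deep cells and 11.6 CPM in the cells under 40000 UMIs.

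At least 10 UMIs of the 10 endothelial markers were present in 51 of the 62 cells, at least 10 UMIs of the 10 macrophage markers in 58, and both in 49. Among the APOE2 gated cells of 40000 UMIs or more that lacked the pair, 56 of 261 had both, and among the deep cells of APOE3 and APOE4 that number was 0 of 304 and 0 of 204. All 62 were possible doublets by a rule of UMIs above the 95th percentile of the library or at least 10 UMIs of an immune, erythroid or endothelial marker list; that rule marked 77 of the 400 high-scoring cells and 1523 of the 17712 gated cells. Whether the droplets held more than 1 cell was not tested. Among the 350 Rpgrip1-only cells 0 had at least 10 UMIs of both lists, at far lower depths (medians of 7539, 13551.5 and 8431.5 UMIs) that make this count hard to reach. As a share of UMIs, the macrophage list summed to 25.6, 29.8 and 5.76 CPM in the Rpgrip1-only cells of APOE2, APOE3 and APOE4, led by Lyz2 and with 7 of its 10 genes at 0 in APOE4, against 108, 33.1 and 24.5 CPM in the other gated cells. Deep cells with mixed markers were among the other gated cells of APOE2, and the part of depth was not tested. The endothelial list summed to 89.3, 68.5 and 94.4 CPM against 100.7, 77.0 and 89.4 CPM, and Cdh5, Kdr and Cldn5 were at 0 in the Rpgrip1-only cells of every library.

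**Figure D2:**
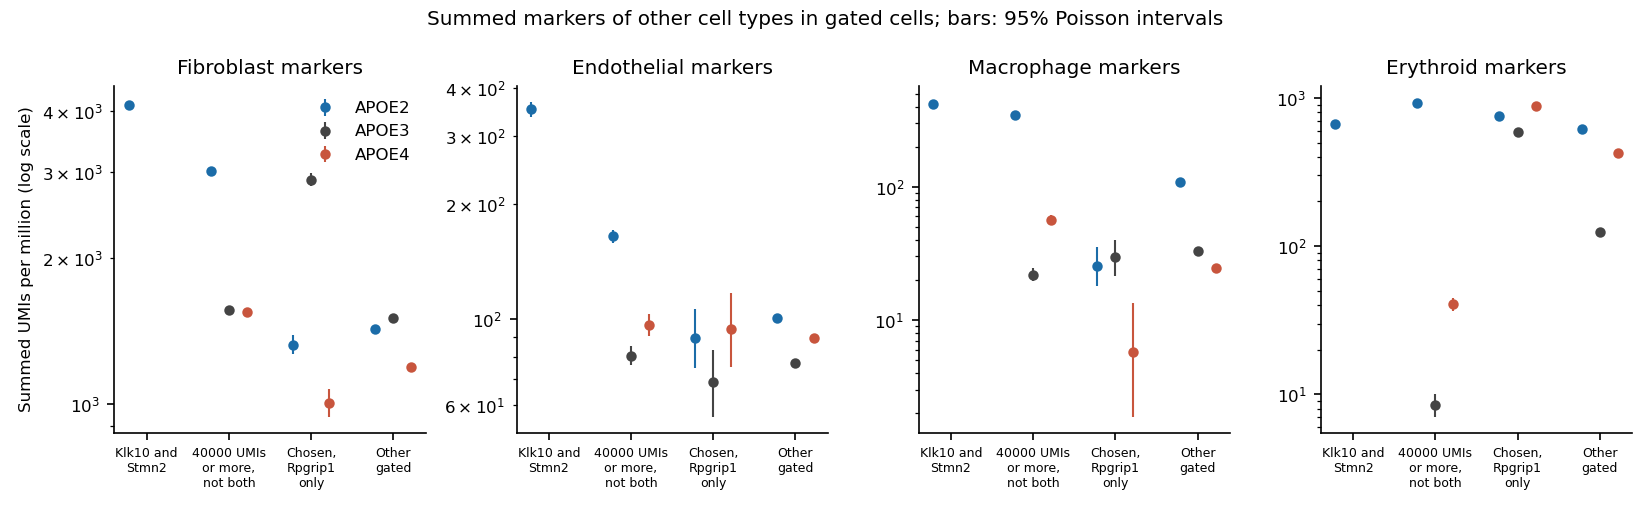
Summed UMIs per 1000000 (log scale) of the fibroblast, endothelial, macrophage and erythroid marker lists in 4 classes of gated cells, with 95% Poisson intervals, for each library. The cells with Klk10 and Stmn2, found in APOE2 alone, had the highest fibroblast and endothelial sums, 4128 and 353 CPM, and in the Rpgrip1-only cells the fibroblast sum was raised in APOE3 (2895 CPM) and not in APOE2 (1325 CPM) or APOE4 (1007 CPM).

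Klk10 and Stmn2 were abundant outside the smooth muscle gate. Cells that failed the gate and had at least 0.2% of their UMIs from the endothelial markers numbered 63 in APOE2, 7 in APOE3 and 12 in APOE4. There the APOE2 library had Klk10 at 173 CPM (95% Poisson interval 147 to 201), the APOE3 library at 136 CPM (74.5 to 229) and the APOE4 library at 169.5 CPM (106 to 257). In the remaining ungated cells it was 0.0541, 0 and 0 CPM. Stmn2 stood at 315, 379.7 and 208 CPM in the endothelial-marker cells against 1.19, 1.09 and 0.947 CPM in the remaining ungated cells. Both genes were thus present in the endothelial-marker cells of all 3 genotypes, in 17 of 63, 3 of 7 and 4 of 12 cells for Klk10. Further genes that accompanied them in the 62 APOE2 cells were high there as well. Klk8 was at 170.4, 87.6 and 146 CPM, Cytl1 at 3672, 3836 and 3544 CPM, and Gkn3, a gastrokine found in arterial endothelium, at 366, 866 and 755 CPM. In the APOE2 high-scoring cells Gkn3 stood at 10.1 CPM, and in those of APOE3 and APOE4 it was at 0. Rpgrip1 stood at 15.5 CPM (8.67 to 25.6) in the endothelial-marker cells of APOE2, near the 13.2 CPM of the remaining ungated cells. In those of APOE3 and APOE4 it had 0 UMIs, which in so few cells allows up to 29.2 and 23.1 CPM (3 UMIs) and so gives no order against the other cells.

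Klk10 and Klk8 lie in the same kallikrein locus on the plus strand, Klk8 at chr7:43797577-43803826. Their RefSeq promoters (GRCm38.p6) are shown because the pair appeared in the same cells; capitals mark GGAA or TTCC, the core shared by ETS factors and its reverse complement. The Klk10 window is chr7:43780804-43781034 and the Klk8 window chr7:43797327-43797576, both on the plus strand.
Klk10: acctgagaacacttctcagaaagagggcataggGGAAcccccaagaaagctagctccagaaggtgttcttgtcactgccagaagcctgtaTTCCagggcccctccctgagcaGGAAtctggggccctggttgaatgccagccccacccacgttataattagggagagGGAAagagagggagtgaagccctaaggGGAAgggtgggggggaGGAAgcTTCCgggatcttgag
Klk8: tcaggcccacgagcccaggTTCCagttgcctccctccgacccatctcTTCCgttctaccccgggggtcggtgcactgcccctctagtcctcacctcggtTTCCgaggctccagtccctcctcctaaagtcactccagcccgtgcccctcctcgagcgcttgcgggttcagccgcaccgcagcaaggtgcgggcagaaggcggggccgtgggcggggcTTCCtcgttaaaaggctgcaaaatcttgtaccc
The 231 bases before Klk10 held 7 matches and the 250 bases before Klk8 held 4, searched on both strands. GGAA or TTCC occurs in 93.4% of 32851 promoter windows of 250 bases, so a match is the usual state of a window. The CArG box, the motif of serum response factor, was found in neither and occurs in 1.47% of the windows. Stmn2 had no entry in the table used.

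**Figure D3:**
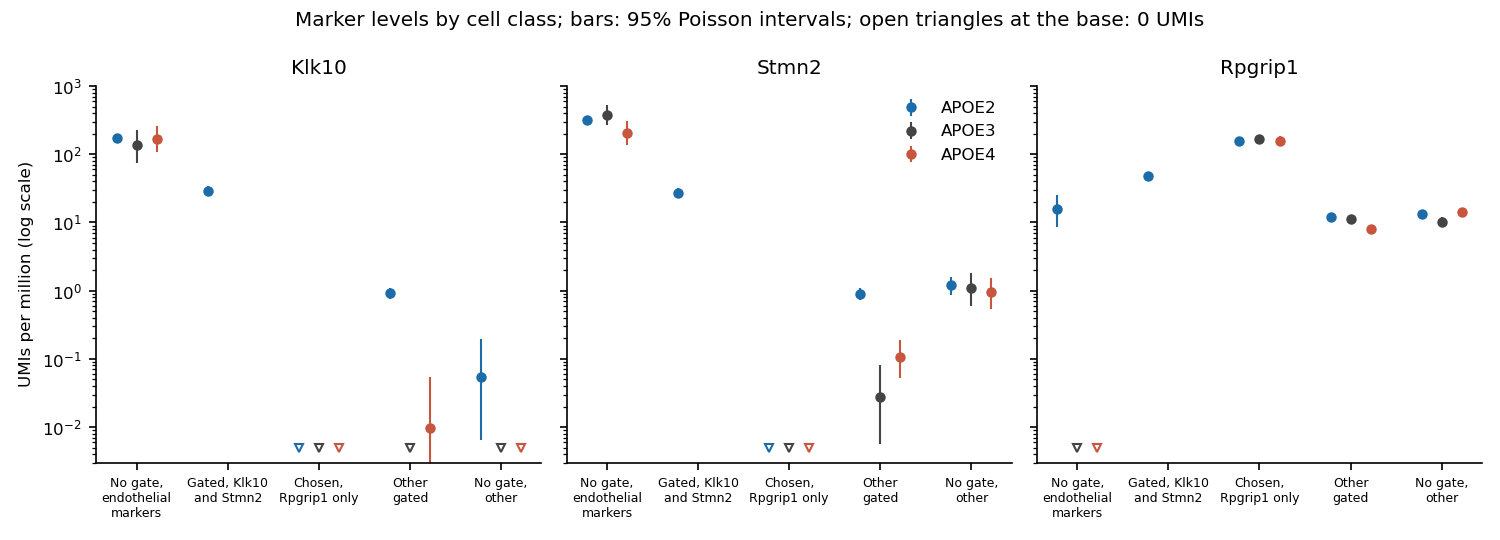
Klk10, Stmn2 and Rpgrip1 UMIs per 1000000 (log scale) in 5 classes of cells for each library, with 95% Poisson intervals; open triangles at the base mark 0 UMIs. Klk10 and Stmn2 peak in the ungated endothelial-marker cells of all 3 libraries, whereas Rpgrip1 lies between 8.08 and 14.4 CPM in other gated and remaining ungated cells.

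Rpgrip1 was the gene that most of the high-scoring cells had in common. It is annotated at chr14:52110704-52163546 on the plus strand (ENSMUSG00000057132) and gave 1849, 1449 and 986 UMIs in the gated cells of APOE2, APOE3 and APOE4. In the high-scoring cells it stood at 102, 165 and 157 CPM, against 11.9, 11.1 and 8.08 CPM in the other gated cells, a difference that the choice itself made. In ungated cells without the endothelial markers Rpgrip1 was at 13.2, 10.2 and 14.4 CPM, against 14.8, 13.1 and 9.37 CPM over all gated cells. Gated cells were below the ungated ones in APOE4 (95% Poisson intervals 8.80 to 9.98 and 12.6 to 16.3 CPM) and above them in APOE3 (12.5 to 13.8 and 8.53 to 12.1). In APOE2 the intervals overlapped (14.1 to 15.5 and 12.1 to 14.4). The gated APOE2 level was 34.2 CPM in cells of 40000 UMIs or more. It was 11.1 CPM (10.5 to 11.8) in those under 40000 that lacked the pair of Klk10 and Stmn2, below the ungated cells. The shallowest gated APOE2 cells, under 10000 UMIs, also stood high, at 20.01 CPM (17.3 to 23.0). From 10000 to 20000 UMIs the level was 11.05 CPM, and from there to 40000 it was 9.35 CPM. In APOE3 and APOE4 the gated level fell with depth, from 24.8 and 16.1 CPM under 10000 UMIs to 10.9 and 7.14 CPM at 40000 or more. The part of depth in the order of gated and ungated cells was not tested. After thinning to 5000 UMIs, 6.53%, 7.18% and 4.60% of gated cells had an Rpgrip1 UMI, and 6.90%, 4.47% and 6.08% of the remaining ungated cells did. Before thinning these shares were 18.0%, 22.3% and 15.1% in gated and 16.0%, 12.2% and 14.6% in ungated cells, at median depths of 14853.5, 19984 and 15710 and of 11183, 11455 and 10048 UMIs. The order of gated and ungated cells differed between libraries. The last 3133 bases of Rpgrip1 overlap Supt16, a histone chaperone gene on the minus strand, and the strand setting of the counting was not given in the sources used here. Supt16 stood at 58.8, 49.8 and 50.3 CPM in the high-scoring cells and 52.2, 45.8 and 43.8 CPM in the others.

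Rpgrip1 differed between gated cells of low and middling fibroblast marker share in APOE2 and APOE3. Gated cells with 0.2 to 0.5% of their UMIs from 10 fibroblast markers (Dcn, Lum, Pi16 and others) had Rpgrip1 at 37.7 CPM (34.7 to 40.9) in APOE2 and 31.9 CPM (28.9 to 35.2) in APOE3. Gated cells under 0.1% had 10.9 and 8.44 CPM in the same libraries. In APOE2 depth moved with this difference, with a median of 26034 UMIs in the first bin and 14179 in the second, whereas in APOE3 the medians were 17146.5 and 19990. The first bin also held high-scoring cells, which were chosen partly for Rpgrip1. In APOE2 these were 37 of its 391 cells, with a median of 49539 UMIs and 139 of its 581 Rpgrip1 UMIs, and in APOE3 they were 50 of 636 cells with 128 of 404. The 62 APOE2 cells with both Klk10 and Stmn2 had a fibroblast sum in this range, 4128 CPM, and Rpgrip1 at 47.5 CPM. In APOE4 the level was 8.73 CPM (5.08 to 14.0) in the first of these bins and 9.36 CPM in the second. Cells with 1% or more had 10.9, 16.1 and 8.99 CPM, so the level was highest in the middle of the range in APOE2 and APOE3. The bins were set after the values were seen, the difference was not tested, and nor was the part of depth, mixed markers or the choice of cells in it.

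**Figure D4:**
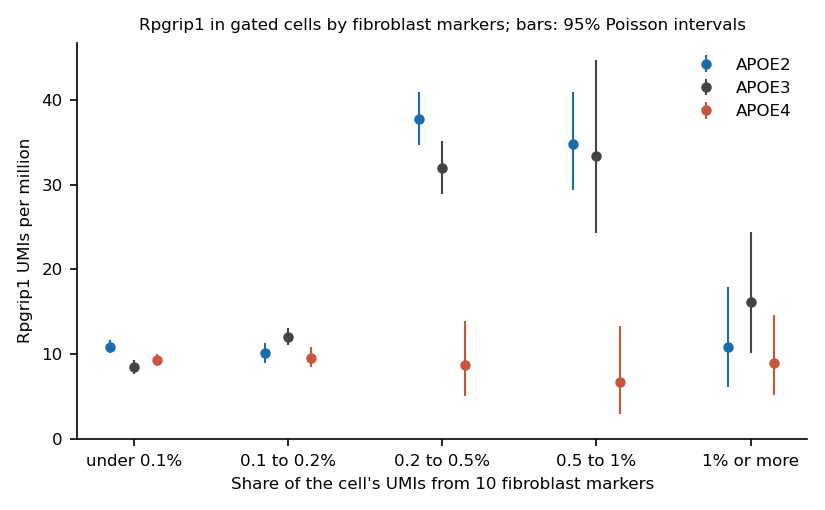
Rpgrip1 UMIs per 1000000 in gated cells, by the share of the cell's UMIs from 10 fibroblast markers, with 95% Poisson intervals, for each library. Between 0.2% and 1% APOE2 and APOE3 stand at 31.9 to 37.7 CPM and APOE4 at 6.77 to 8.73 CPM; below 0.2% the 3 libraries lie between 8.44 and 12.0 CPM.

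Transcriptome neighbours of the high-scoring cells were taken from 30 principal components of the 2000 most variable genes, without the 5 genes of the rule. In APOE2, 10.2% of the 20 nearest gated cells of a high-scoring cell were high-scoring too, where 3.01% of gated cells were. The value was 30.9% for its cells with Klk10 or Stmn2 and 3.94% for its Rpgrip1-only cells. In APOE3, where all were Rpgrip1-only, it was 8.37% against 2.07%, and in APOE4 1.25% against 1.52%. Of the neighbours of the 62 cells with both genes, 54.0% had both, against 0.898% of gated APOE2 cells. The Rpgrip1-only cells thus lay near each other in APOE3, little so in APOE2 and not in APOE4; this is a description, with no test.

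Each marker was then examined in cells chosen without it. The edgeR quasi-likelihood test compared UMIs summed per library with the library as a block, and p-values were adjusted by Benjamini-Hochberg over all genes tested. In the 400 cells highest for Klk10 and Rpgrip1, Stmn2 was higher by 3.01 on the log2 scale (SE 0.54). This value rested on APOE2, since the gated cells of APOE2, APOE3 and APOE4 held 248, 3 and 13 Stmn2 UMIs. Without APOE2, and against other cells of the nearest UMI count, Stmn2 did not pass the filter on low counts. The value therefore describes APOE2 and is not read as a test. Only 163 gated cells carried Klk10 or Stmn2, and in these Rpgrip1 was higher by 1.71 (SE 0.31, adjusted p = 4.0e-06). Of the 163 cells 146 were in APOE2, and without that library the change was 1.29 (adjusted p = 0.718). Against cells of the nearest UMI count it was 1.68 (adjusted p = 0.0047), but in APOE2 depth was not matched, with a median of 52289 UMIs in the chosen cells and 34374.5 in the cells found for them. Klk10, in cells chosen by Stmn2 and Rpgrip1, did not pass the filter on low counts. It entered the fits without APOE3, without APOE4 and with no filter, with log2 changes of 3.303, 3.316 and 3.29, through APOE2 alone, since gated APOE3 and APOE4 cells held 0 and 1 Klk10 UMIs; these values describe that library and are not read as a test. Without APOE2 no left-out marker passed the test.

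The whole transcriptome of the high-scoring cells was compared with that of the other gated cells in the same way. Notch2 was higher in every library and the contractile genes were not called. Fibroblast markers as a sum were higher in APOE2 and APOE3 and not in APOE4, and in the Rpgrip1-only cells in APOE3 alone. Haemoglobin genes were higher in every library but turned lower after thinning and had no call without possible doublets, and inflammatory genes were higher mainly in APOE2. Of 15456 genes tested, 232 were higher (1.5%) and 36 lower (0.233%) at an adjusted p under 0.05. Only 88 of the 232 were higher in all 3 libraries, and 31 of the 36 were lower in all 3, where 26.8% of all tested genes had the same direction throughout. The 6 sums left 2 residual degrees of freedom and the test pooled the spread fully over genes, so a gene raised in 1 library could pass. Without APOE2, 34 genes (0.222%) were higher and 0 lower (234 and 316 at an unadjusted p under 0.05, edgeR); without APOE3 the counts were 147 and 3, and without APOE4 536 and 864. Against other cells of the nearest UMI count 38 (0.337%) were higher and 1 (0.00887%) lower, without possible doublets 76 (0.51%) and 5 (0.0336%), and by DESeq2 46 and 0. When all cells with a Klk10 or Stmn2 UMI were left out of both sides, a comparison added after the data were seen, 55 (0.361%) were higher and 9 (0.059%) lower, and 38 of the 268 original calls were shared.

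Among called genes of at least 20 CPM with the same direction in all 3 libraries, Ly6c1 and Ly6a had the largest increases. They encode surface proteins of adventitial progenitors and also of endothelium, and belong to a family of close copies whose reads may be split. In the ungated endothelial-marker cells of APOE2 they stood at 1285 and 2334 CPM. Ly6c1 stood at 94.0, 26.3 and 2.19 CPM in the high-scoring cells of APOE2, APOE3 and APOE4 and at 9.51, 2.87 and 2.02 CPM in the other cells (log2 change 3.08, SE 0.18, adjusted p = 7.56e-60). The groups were far apart in APOE2 and APOE3 and close in APOE4. The APOE4 value rested on 2 UMIs and lay below the 3.28 CPM that a count of 0 allows there. In the Rpgrip1-only cells Ly6c1 stood at 5.54, 26.3 and 0 CPM, below the other cells in APOE2. Gated APOE2 cells under 40000 UMIs that lacked the pair of Klk10 and Stmn2 had Ly6c1 at 6.54 CPM. It was not called without possible doublets (1.40, adjusted p = 0.057) or by DESeq2 (adjusted p = 0.504). Dcn stood at 1057, 636 and 215 CPM against 311, 196 and 207 CPM (1.26, SE 0.12, adjusted p = 6.19e-23). In the Rpgrip1-only cells Dcn was 292, 636 and 149 CPM, so the APOE2 increase sat in the cells with Klk10 or Stmn2. Pi16, a peptidase inhibitor gene of adventitial fibroblasts, was at 140.4, 134 and 6.57 CPM against 23.4, 19.8 and 17.9 CPM, and APOE4 was lower, not higher. Lum, a collagen-binding proteoglycan, stood at 226, 63.0 and 28.5 CPM against 66.2, 18.9 and 14.0 CPM, higher in all 3. In the Rpgrip1-only cells Lum was at 51.9, 63.0 and 16.1 CPM, below the other gated cells in APOE2, which were also deeper. Of the 10 fibroblast markers 9 rose and 0 fell, with a median log2 change of 1.54 where the median of all tested genes was -0.01; 5 rose without APOE2, 5 without possible doublets and 5 without cells carrying Klk10 or Stmn2, while DESeq2 called 1, Lum. Summed, the markers stood at 3255, 2895 and 1124 CPM against 1424, 1503 and 1193 CPM, led by Gsn, which encodes the actin-severing protein gelsolin. The part of fibroblast RNA in the other differences was not tested.

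Haemoglobin genes were higher in every library. Hbb-bs, an adult beta globin gene, stood at 599, 332 and 441 CPM against 357, 66.4 and 241 CPM in the other cells (log2 change 1.29, SE 0.12, adjusted p = 1.11e-25), and was not called by DESeq2 (adjusted p = 0.648) or limma-voom (adjusted p = 0.0564). Hba-a1 and Hba-a2, the near-identical alpha globin genes whose reads cannot be told apart with certainty, rose by 1.33 and 1.34. Of 5 tested erythroid markers 4 rose; 4 rose also without APOE2 and 0 without possible doublets, a filter that itself removes cells with at least 10 UMIs of this list. All 3 genes turned lower in cells scored after thinning to 5000 UMIs (-0.48 for Hbb-bs). Against other cells of the nearest UMI count the 3 genes stayed higher, Hbb-bs by 1.20 (adjusted p = 5.69e-05), Hba-a1 by 0.95 and Hba-a2 by 1.01, and 4 erythroid markers were called.

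Notch2 and Slc39a1 were higher in every library. Notch2 (chr3:98013527-98150361, plus strand), a receptor of the Notch pathway that takes part in smooth muscle differentiation, stood at 134, 163 and 87.6 CPM in the high-scoring cells and 62.9, 70.2 and 48.4 CPM in the others. All 3 libraries were higher, and the groups did not overlap (log2 change 1.09, SE 0.12, adjusted p = 1.45e-17). In the Rpgrip1-only cells it stood at 108, 163 and 85.2 CPM, and without all cells carrying Klk10 or Stmn2 the change was 0.96 (adjusted p = 4.14e-11). Against cells of the nearest UMI count it was 0.77 (adjusted p = 0.000405). Jag1, a Notch ligand, was at 36.2, 45.7 and 17.5 CPM against 21.6, 23.7 and 18.0 CPM (0.70, SE 0.15, adjusted p = 0.000381), and was not called without APOE2 (0.59, adjusted p = 1.00). The median over the 14 tested Notch genes was 0.54, with 2 called. Slc39a1, a zinc importer gene chosen after its values were seen, was at 146, 188 and 108 CPM against 64.3, 77.1 and 54.6 CPM (1.17, SE 0.12, adjusted p = 3.3e-21). Notch2, Slc39a1 and Igfbp4 were called without APOE2, without possible doublets and without cells carrying Klk10 or Stmn2. They were also called against cells of the nearest UMI count, by DESeq2 and by limma-voom, and further alternatives are not given for them. Dpt and Mmp3 were called under every alternative tried other than the fit without the library block, which called 0 genes. Cytl1 lost its call in that fit and in the comparison without cells carrying Klk10 or Stmn2 (0.51, adjusted p = 0.903). Dpt, which encodes dermatopontin of the extracellular matrix, rose by 1.66, the matrix metalloproteinase gene Mmp3 by 1.28, and Igfbp4 by 1.02.

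Other genes named by size and direction had varied roles. Tgfbi (1.63), an adhesion protein induced by TGF-beta, the complement gene C3 (1.57), the lipid transporter gene Abca8a (1.56), the RNA-binding protein gene Bicc1 (1.34) and Igfbp5 (1.33), a binding protein of insulin-like growth factors, were higher on the log2 scale in all 3 libraries. Tgfbi was level in APOE4, at 7.66 against 7.45 CPM. Tgfbi, C3 and Bicc1 stood at 5.54, 23.5 and 8.31 CPM in the APOE2 Rpgrip1-only cells. The other gated APOE2 cells had more, 7.46, 29.9 and 10.4 CPM. They were also deeper, with a median of 14962 against 7539 UMIs, and the part of depth was not tested. Tgfbi was not called without APOE2 (1.08, adjusted p = 0.125) or without cells carrying Klk10 or Stmn2 (0.80, adjusted p = 0.279). C3 and Bicc1 were not called without possible doublets (adjusted p = 0.0664 and 0.403) or without cells carrying Klk10 or Stmn2 (0.0715 and 0.192), and C3 also not against cells of the nearest UMI count (0.131). Igfbp5 was not called by DESeq2 (adjusted p = 0.902), nor Abca8a after thinning (log2 change 0.52). Abca8a stood at 31.9, 24.2 and 17.5 CPM against 10.4, 8.54 and 6.69 CPM, and at 22.9, 24.2 and 18.4 CPM in the Rpgrip1-only cells, so its increase was not tied to Klk10 or Stmn2. Igfbp5 stood at 88.5, 138 and 58.0 CPM against 36.2, 33.1 and 48.0 CPM, widest in APOE3. In the Rpgrip1-only cells Igfbp5 was at 24.9, 138 and 59.9 CPM, below the other gated cells in APOE2. The decreases were small. Acan, the cartilage proteoglycan aggrecan, stood at 9.13, 22.8 and 9.85 CPM against 13.5, 36.2 and 19.2 CPM (-0.65, SE 0.19, adjusted p = 0.0325). Cspp1, Rexo1, Rab2b, Adamts9, Pcyt1a, Maf, Dip2b and Nos1ap fell by 0.57 to 0.67, and none of these 9 genes was called without APOE2, without APOE3, without possible doublets, or against cells of the nearest UMI count.

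**Figure D5:**
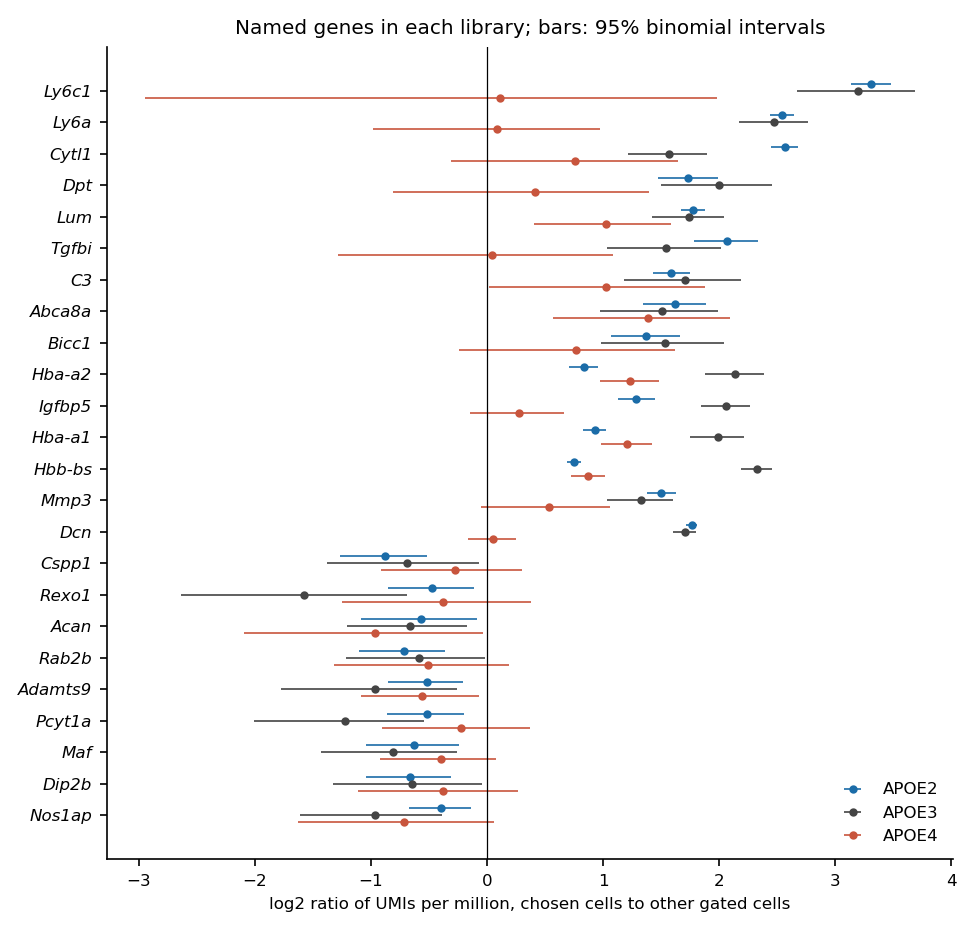
Log2 ratio of UMIs per 1000000, high-scoring to other gated cells, in each library for 24 genes named by the rule, with 95% binomial intervals. Ly6c1, Ly6a and Dcn are raised in APOE2 and APOE3 and lie near 0 in APOE4, Abca8a lies between 1.39 and 1.62 in all 3, and the lower genes have wide intervals.

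Smooth muscle genes showed no call. Of 24 contractile genes 0 rose and 0 fell (0 higher and 7 lower at an unadjusted p under 0.05 by edgeR, and 0 called by DESeq2 or limma-voom), with a median log2 change of -0.17. Over all 15456 genes 760 were higher and 772 lower at that unadjusted p, a smaller share than the 7 of 24. Myh11 had a change of -0.23 (SE 0.13, adjusted p = 0.55). Cnn1, calponin, stood at 1201, 1285 and 1258 CPM against 1339.8, 1409 and 1345 CPM, slightly lower in each library. Myocd stood at 133, 105 and 233 CPM against 175, 174 and 199.5 CPM (-0.29, adjusted p = 0.259), lower in APOE2 and APOE3 and higher in APOE4. Of 29 ion channel and calcium genes Ano1, a calcium-activated chloride channel, fell (-0.47, adjusted p = 0.0312) and 0 rose. Ano1 was not called without APOE2, without possible doublets, by DESeq2 or by limma-voom. Of 27 vasoactive receptor and signalling genes 0 were called in either direction (0 higher and 2 lower at an unadjusted p under 0.05 by edgeR, 0 by DESeq2, 1 by limma-voom).

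The gene families of the markers gave few calls. Of 18 partners of RPGR and the ciliary transition zone 0 rose and 0 fell (0 and 1 at an unadjusted p under 0.05 by edgeR, 0 by DESeq2 and limma-voom), with a median log2 change of -0.20. Rpgr itself was at 1.52, 1.38 and 1.09 CPM against 2.65, 2.36 and 2.32 CPM (adjusted p = 0.687). Of 13 other kallikrein genes only 2 passed the filter. Klk8 was higher by 3.18 (SE 0.60), at 10.9, 0 and 1.09 CPM against 1.23, 0.0184 and 0.0959 CPM. Its UMIs in the high-scoring cells were 43, 0 and 1, so its call rested on APOE2 and is not read as a test. Klk8 did not pass the filter, and was not tested, without that library or without possible doublets. Nor did it pass against cells of the nearest UMI count or without cells carrying Klk10 or Stmn2. Of 21 stathmin, tubulin and microtubule genes Stmn1, the stathmin of dividing cells, rose (0.78, adjusted p = 0.00138) and 0 fell. Stmn1 stood at 28.4, 9 and 24.1 CPM against 11.6, 9.04 and 20.2 CPM, apart in APOE2 and level in APOE3, and it was not called without APOE2, against cells of the nearest UMI count, without cells carrying Klk10 or Stmn2, by DESeq2 or by limma-voom. Of 5 tested neuronal markers 0 were called (1 higher and 0 lower at an unadjusted p under 0.05 by edgeR, 0 by DESeq2 and limma-voom), and of 6 Schwann cell markers 0 (0 and 0 unadjusted, 0 by either tool).

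Genes of aortic position gave few calls. Of 21 Hox genes 0 were called (0 higher and 1 lower at an unadjusted p under 0.05 by edgeR, 0 by DESeq2 and limma-voom), and of 8 genes that the study used to mark the descending aorta 0 were called (0 and 2 unadjusted, 0 by DESeq2 and limma-voom; median -0.32). Of 7 tested genes that it used to mark the arch, Lbp and Prss12 rose. Lbp, lipopolysaccharide-binding protein, stood at 20.3, 4.15 and 0 CPM against 3.83, 1.07 and 0.575 CPM, and neither gene was called without APOE2. Of 26 tested outflow tract transcription factors Meox1 and Meox2 rose (2.47 and 1.78), and neither was called without APOE2. In the arch list and in the outflow list DESeq2 called 0 genes and limma-voom 1.

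Of 24 inflammatory genes 13 rose and 0 fell (median 0.86), and 1 rose without APOE2. Lcn2, the neutrophil gelatinase-associated lipocalin, stood at 169, 0 and 0 CPM against 53.0, 0.496 and 0.0480 CPM, and at 9.70 CPM in the APOE2 Rpgrip1-only cells. Without cells carrying Klk10 or Stmn2 it was lower in the high-scoring cells (-2.20), which rested on APOE2 and is not read as a test. The chemokine gene Cxcl2 (-1.28, adjusted p = 0.000645) and Spp1, osteopontin (-3.14, adjusted p = 4.32e-20), were lower too. The Rpgrip1-only cells compared there were shallower than the other cells, with a median of 7539 against 14860.5 UMIs in APOE2. Spp1 was at 11.1 CPM in the APOE2 Rpgrip1-only cells. It was at 895 CPM in the deep gated APOE2 cells lacking the pair of Klk10 and Stmn2. In the less deep ones it was at 11.6 CPM, level with the Rpgrip1-only cells. The part of depth in these decreases was not tested. Of 20 modulated smooth muscle genes 7 rose, Ly6c1, Ly6a, Lum and Dcn among them, and 1 fell; 4 rose without APOE2. Of 6 tested endothelial markers 4 rose and 0 rose without APOE2, and of 9 macrophage markers 3 rose and 0 rose without APOE2. Of 3 tested neutrophil markers S100a8 and S100a9 fell, and 0 fell without APOE2. DESeq2 called 1 inflammatory, 1 modulated smooth muscle, 1 endothelial, 0 macrophage and 0 neutrophil genes. The limma-voom counts were 3, 3, 3, 0 and 0 in the same order.

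Among matrix and growth factor lists, most calls were lost without APOE2. By DESeq2, 0 elastic fibre and 0 Wnt genes were called, and 1 gene in each other list below that had calls. By limma-voom, 0 elastic fibre, 1 proteoglycan, 1 protease or inhibitor and 3 growth factor genes were called. It also called 2 Wnt, 1 TGF-beta or BMP and 2 bone and cartilage genes. Elastic fibre genes had 0 calls without possible doublets. Of 20 collagen genes 0 were called (2 higher and 3 lower at an unadjusted p under 0.05 by edgeR, 0 by DESeq2 and limma-voom). Of 19 elastic fibre genes Fbln1, Efemp1, Fbln2 and Emilin2 rose, with 1 higher without APOE2, and of 20 proteoglycan genes Lum, Dcn, Gpc3 and Fmod rose, with 2 higher without APOE2. Of 27 proteases and inhibitors 8 rose and 1 fell, led by Mmp3, while 1 was higher without APOE2, 2 were without possible doublets and 1 was without cells carrying Klk10 or Stmn2. Of 25 FGF, IGF and PDGF genes 5 rose and 1 fell, led by the binding protein genes Igfbp6, Igfbp5 and Igfbp4, and 3 were higher without APOE2. Of 22 Wnt genes 4 rose, Sfrp1 among them, and 0 did without APOE2. Of 28 TGF-beta and BMP genes Tgfbi and Bmp4 rose and 0 did without APOE2, and of 18 bone and cartilage genes Cytl1, Fmod and Comp rose and Acan fell, with 1 higher without APOE2. The 13 mitochondrially encoded genes gave 0 calls (1 higher at an unadjusted p under 0.05 by edgeR, 0 by DESeq2 and limma-voom), whereas 12 were higher without possible doublets, 1 without APOE2 and all 13 without cells carrying Klk10 or Stmn2. They summed to 30908, 25287 and 41923 CPM in the Rpgrip1-only cells and 2659 CPM in the 62 cells with both genes, against 20995, 16791 and 28028 CPM in the other gated cells.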

How the data were processed

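Deposited values were UMI counts per gene and barcode, made by the authors with Cell Ranger (7.0.1 in the file headers) on mm10 for 3 libraries of pooled aortic cells; total counts ranged from 125553125 to 169058334. Members and lists were chosen with earlier results of these data known. Cells were filtered, gated and scored as the report states, counts were summed per library, and sums of high-scoring and other gated cells were compared with edgeR 4.0.16 (TMM, filterByExpr, quasi-likelihood, library block; DESeq2 1.42.0 and limma 3.58.1 voom as alternatives). Library sums of different cells share a pool, and the spread behind the p-values was pooled fully over genes. A p-value therefore does not measure a gene's own spread between the 3 pools. On simulated data with the same change in all 3 libraries, the step recovered 100% of 200 genes changed by a log2 of 2 among 15450. That setting cannot show how often a gene raised in 1 library passes. Named genes were the 15 largest increases and 10 largest decreases called in the same direction in 3 libraries with at least 20 CPM, and up to 4 called genes per list. Individual values of 2 of these genes are not reported here. Doublets were marked, not removed. Intervals are 95% exact, and a count of 0 allows 3 counts. Symbols and coordinates follow GENCODE vM21; promoters come from RefSeq. Python 3.11.15 and scikit-learn 1.9.0 were used.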

Additional observations from a re-analysis of the deposited data

Results flagged for a closer look

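Klk10 and Stmn2 were seen outside the gated cells on which the comparisons rest. In ungated cells with at least 0.2% of UMIs from endothelial markers, Klk10 stood at 173, 136 and 169.5 CPM and Stmn2 at 315, 379.7 and 208 CPM in APOE2, APOE3 and APOE4, above the limit that a count of 0 allows (3.10, 29.2 and 23.1 CPM). These values come from 63, 7 and 12 cells.

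The summed macrophage markers moved in opposite directions in APOE2 and APOE4. The log2 ratio of high-scoring to other gated cells was 1.36 in APOE2 and -2.16 in APOE4, and the difference was not tested, with 1 library per genotype. The APOE2 increase sat in its 48 cells with Klk10 or Stmn2, at 421 CPM. In the Rpgrip1-only cells the sum was lower than in the other gated cells in both libraries, 25.6 against 108 CPM in APOE2 and 5.76 against 24.5 CPM in APOE4, and in APOE3 it was 29.8 against 33.1 CPM. The high-scoring cells of APOE4 held 5 UMIs of these markers.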

How the results depend on the processing

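The number of genes called depended on the cells and libraries entered. Genes higher and lower numbered 232 and 36 as reported, 46 and 0 by DESeq2, 98 and 1 by limma-voom, 264 and 68 with no filter on low counts, 38 and 1 against cells of the nearest UMI count, 141 and 26 with scores after thinning, 640 and 330 for cells with 2 of the 3 markers, 192 and 78 with the gate at 1%, 398 and 358 with the gate at 4%, 363 and 137 from 10000 UMIs, 76 and 5 without possible doublets, and 55 and 9 without cells carrying Klk10 or Stmn2. Leaving out 1 library each gave 34 to 536 higher and 0 to 864 lower, the lowest of both without APOE2 and the highest without APOE4. With no replicate block for the library 0 and 0 were called (481 and 316 at an unadjusted p under 0.05), so no call of that comparison held. Of the markers left out of the choice, Stmn2 was 3.31 there, not read as a test, and Rpgrip1 kept its call (1.81, adjusted p = 0.0037). Leave-one-out values of Rpgrip1 in cells chosen without it were 1.29 to 1.79. Globin genes reversed: Hba-a2 was -0.19 after thinning and -0.26 with 2 of 3 markers, Hba-a1 -0.21 and -0.24, Hbb-bs -0.48 and -0.76, and Acan was 0.028 after thinning; the cause was not tested. Of the 25 named genes 10 kept their call by DESeq2, 14 without APOE2, 9 without possible doublets and 11 without cells carrying Klk10 or Stmn2. Shares of gated cells in APOE2, APOE3 and APOE4 were 2.58%, 2.74% and 1.45% after thinning, 1.65%, 0.0398% and 0.104% with 2 of 3 markers, 1.53%, 1.07% and 0.692% for 200 cells, 6.08%, 4.10% and 3.01% for 800 cells and 5.66%, 4.76% and 2.41% with the gate at 4%; from 10000 UMIs APOE2 and APOE3 were 3.54% and 2.78%, and without possible doublets APOE4 was 1.95%. The alternatives of 200 and 800 cells were not run for Rpgrip1 left out, since only 163 cells carried the other markers. A count of 0 in the high-scoring cells of APOE3 and APOE4 allows up to 2.08 and 3.28 CPM.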
